A study of Homo sapiens with 4 samples.

Results

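Zinc finger genes with a ZNF symbol were examined in Huh7 cells after knockdown of the nuclear pore membrane protein gene NUP210. The members were the rows of the expression tables whose symbol is ZNF followed by digits, with or without 1 closing letter, selected on a mean level of 5 TPM or more over all 4 libraries. TPM is a relative transcript level, scaled for transcript length and for the library total. Of 20226 gene rows, 479 had such a symbol, and 147 of these passed the cut on mean TPM. They carry 146 distinct symbols, because ZNF668 stands on 2 rows. Huh7 is an established line derived from a human hepatocellular carcinoma. One group carried a short hairpin RNA directed at NUP210 (titled shNUP210, 2 libraries) and the other was the control (titled shCon, 2 libraries), with the genotype given as wild type. All 4 libraries were marked as untreated. Separate cultures are not stated for the libraries, nor whether a line is a clone or a pool, so each p-value below measures a spread between libraries that may be technical.

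ZNF symbols name proteins with zinc fingers, mostly of the C2H2 type, in which a pair of cysteines and a pair of histidines hold a zinc ion and a short helix reads DNA bases. A large share of human C2H2 proteins also carry a KRAB box, which binds the corepressor TRIM28 (KAP1). TRIM28 in turn brings the histone methyltransferase SETDB1, heterochromatin protein 1 and the NuRD deacetylase complex to the bound DNA, often at retroelements. Many KRAB genes lie in tandem clusters on chromosome 19. Other ZNF proteins carry a SCAN domain, which pairs them with each other, or act in RNA processing, ribosome quality control and transcription activation.

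The mean TPM that chose the members ran from 5.05 to 207 TPM, with a median of 10.1 and quartiles of 6.76 and 19.7 TPM. Just above the cut stood ZNF197 and ZNF682, each at 5.05 TPM, and ZNF35 at 5.06 TPM. Just below it stood ZNF542 at 4.94, ZNF212 at 4.96 and ZNF641 at 4.97 TPM. Of the members, 72 had a mean under 10 TPM, 39 a mean of 10 to 20 TPM, 36 a mean of 20 TPM or more, and 3 a mean of 100 TPM or more. No member was at 0 in any library. In 7 members the shNUP210 mean was under 5 TPM and in 18 (12.2%) the shCon mean was, so these reached the cut only through the group in which they were higher and had to differ in that direction. The same held for 222 and 715 of the 9004 other genes in the range. By GENCODE release 29 on GRCh38, 145 were protein coding and they lay on 20 chromosomes, with 49 on chromosome 19, 22 on chromosome 16, 13 on chromosome 7 and 11 on chromosome 1. In the translated coding sequences, a search for the C2H2 spacing found a median of 8 fingers and a highest count of 31, in ZNF142 and ZNF91. A KRAB box pattern was found in 54 members, with a median of 10.5 fingers, and a SCAN pattern in 11. Divergent KRAB boxes can be missed by such a pattern. ZNF259 is the older symbol of ZPR1, ZNF767 is annotated as a pseudogene, and the second ZNF668 row is a non-coding gene on the opposite strand in that release.

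A short sequence was common in the promoters of the members. RefSeq promoter windows on GRCh38.p14, from 250 bases before to 50 after the start, were matched to 124 of the 147 members. The letters CCGGAAG, the core of sites for ETS family activators, were found on either strand in 43.5% of these windows. They were found in 20.1% of the 6267 windows of other genes in the same mean TPM range and in 10.7% of all 27305 windows. The share was 51.1% among 45 members with a KRAB pattern and 39.2% among 79 without one. GGGCGG, the GC box, was in 70.2% of the member windows, against 72.6% for other genes in the range and 44.6% for all. TATAAA was in 2.42% of the member windows, against 4.88% for other genes in the range and 11.95% for all. CCAAT was in 40.3% of the member windows, against 37.1% and 35.7% and TGACGTCA, the cyclic AMP response element, in 5.65%, against 3.54% and 1.98%. Each was searched on both strands. These matches describe letters in a window and are no evidence of binding, and their relation to a change between the groups was not tested.

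The windows of 3 members are printed because their transcripts carried the largest called difference (ZNF778) and the clearest opposite differences among abundant members (ZNF814 and ZNF787). They give the 250 bases before the RefSeq start, 5' to 3' on the strand of the gene, at chr16:89217453-89217702 (+), chr19:57889038-57889287 (-) and chr19:56121296-56121545 (-), with the ETS letters and the GC box in capitals.
ZNF778: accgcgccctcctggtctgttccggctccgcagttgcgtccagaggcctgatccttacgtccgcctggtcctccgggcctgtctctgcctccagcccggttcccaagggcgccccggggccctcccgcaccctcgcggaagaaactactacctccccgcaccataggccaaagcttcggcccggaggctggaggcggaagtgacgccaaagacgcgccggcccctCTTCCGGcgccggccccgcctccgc
ZNF814: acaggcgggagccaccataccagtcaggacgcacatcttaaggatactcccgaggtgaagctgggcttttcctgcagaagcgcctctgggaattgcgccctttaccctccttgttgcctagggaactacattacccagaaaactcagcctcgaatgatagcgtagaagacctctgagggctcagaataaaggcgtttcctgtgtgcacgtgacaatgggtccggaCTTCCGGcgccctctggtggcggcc
ZNF787: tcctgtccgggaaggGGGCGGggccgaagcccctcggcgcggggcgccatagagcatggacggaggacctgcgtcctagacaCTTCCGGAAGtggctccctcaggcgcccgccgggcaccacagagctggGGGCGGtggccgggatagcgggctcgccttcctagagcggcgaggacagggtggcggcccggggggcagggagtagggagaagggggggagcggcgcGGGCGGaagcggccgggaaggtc
The ZNF778 window was 71.6% G or C with 27 CG dinucleotides, the ZNF814 window 56.4% with 13, and the ZNF787 window 74.8% with 27. Each of the first pair held 1 copy of the ETS letters on the minus strand of the gene, a short way before the start. The ZNF787 window held 2 overlapping copies in opposite directions and 3 GC boxes.

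NUP210, the targeted gene, was at 10.1 and 9.85 TPM in shNUP210, against 32.8 and 27.3 TPM in shCon, a log2 fold change of -1.49 ± 0.23 (SE, limma, adjusted p = 0.0387). With any 1 library left out its adjusted p was 0.186 to 0.213, and it passed in 10 of 18 alternatives. Fold changes here are shNUP210 over shCon on the log2(TPM + 1) scale, which understates the change of low genes. The hepatocyte markers named for the check (ALB, AFP, APOB, APOA1, TTR, HNF4A and SERPINA1) were in the tables in 7 of 7 cases, with a summed level of 12751 and 12990 TPM in shNUP210 against 16572 and 16109 TPM in shCon. APOA1, at 2064 and 2054 TPM in shNUP210 against 5034 and 5164 TPM in shCon, and SERPINA1, at 1617 and 1602 TPM in shNUP210 against 2716 and 2635 TPM in shCon, made the sum lower. AFP, TTR and HNF4A were higher in both shNUP210 libraries than in both shCon libraries, and the groups overlapped for ALB and APOB. Of the blood markers only CD68 was listed, at 13.9 and 2.48 TPM in shNUP210 against 30.7 and 17.9 TPM in shCon. No endothelial marker was listed, and PDGFRB and LUM, the fibroblast markers listed, summed to 16.7 and 10.5 TPM in shNUP210 against 9.08 and 11.2 TPM in shCon. In bulk RNA, fewer cells of a kind and less RNA per cell cannot be told apart. The 100 highest genes took 37.6% and 38.1% of the total in shNUP210 and 42.8% and 43.5% in shCon. Genes at 1 TPM or more numbered 14564 and 14405 in shNUP210, against 13920 and 13675 in shCon. TPM keeps no read depth, so the counting error behind a value is unknown. Of 9825 genes with a mean of 5 TPM or more, 318 (3.24%) were called by limma at an adjusted p under 0.05, 202 higher (2.06%) and 116 lower (1.18%). The median log2 fold change of all of them was 0.24, so a gene at the centre of the distribution was above 0. Scaling by median ratios moved that median to 0.01 and the calls to 74 higher and 243 lower.

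The ZNF genes held few calls, as did all genes tested. Of the 147 members, 0 were called higher, where 2.06% of all genes tested were, and 2 (1.36%) were called lower, ZNF778 and ZNF517, where 1.18% of all genes tested were. In either direction 1.36% of the members were called, against 3.24% of all genes tested and 2.50% of the 9004 other genes in the same mean TPM range. At an unadjusted p under 0.05, limma had 21 members higher (14.3%) and 8 lower (5.44%), against 18.1% and 5.86% of all genes tested, and 19.7% of members in either direction, against 23.9% of all genes tested. That split turned with the scaling, to 8 members higher and 15 lower under median-ratio and 7 and 15 under trimmed-mean scaling. It was 4 and 15 under upper-quartile scaling and 6 and 14 under quantile normalization. All genes tested turned the same way. Of those 9825 genes, 664 to 820 were higher and 1225 to 1444 lower under the 3 scalings, and 911 and 987 under quantile normalization. The groups did not overlap in 56 members that were higher (38.1%) and in 19 that were lower (12.9%), and the same held for 42.7% and 14.4% of all genes tested. The median log2 fold change of the members was 0.20, beside 0.24 for all genes tested and 0.26 for the other genes in the range. Above 0 stood 105 of 147 members (71.4%), beside 69.0% of all genes tested, and 68 members lay above the median of all genes tested. These counts include the 18 and 7 members whose direction the cut fixed. Of the 122 members with both group means at 5 TPM or more, 87 were above 0, with a median of 0.16. With both means at that level, 6052 of 8862 genes tested were above 0 (median 0.21), and 5632 of 8067 other genes in the range (median 0.23). Under median-ratio, trimmed-mean and upper-quartile scaling and under quantile normalization the members' median was -0.01, -0.01, -0.06 and -0.08, so its sign rests on the scaling. The members' median minus that of all genes tested was -0.03 on the deposited values and between -0.09 and -0.01 under those 4 settings.

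**Figure D1:**
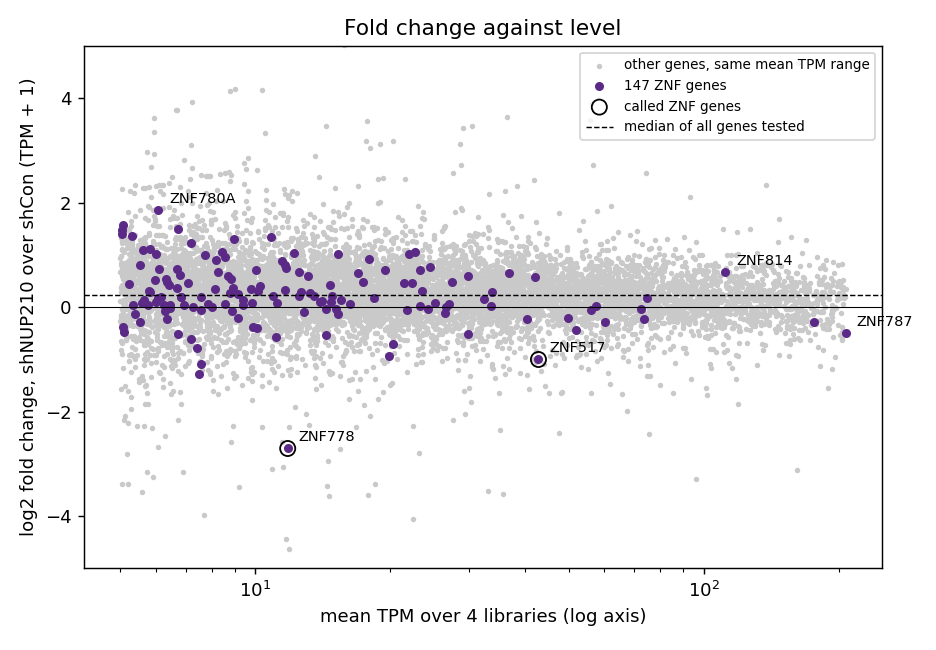
Log2 fold change of shNUP210 over shCon on the log2(TPM + 1) scale (vertical) against mean TPM over 4 libraries (horizontal, log axis), for 147 ZNF genes (purple) and 9004 other genes of the same range (grey, 2 of them outside the axis). The ZNF genes spread around the dashed median of all genes tested, 0.24, with the called genes ZNF778 and ZNF517 circled below it.

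The ZNF transcripts together made up a slightly larger part of the TPM total in the knockdown libraries, as did other genes of their level. The 9004 other genes in the same mean TPM range summed to 342010 and 337749 TPM in shNUP210, against 302087 and 292621 TPM in shCon. That was a larger rise in proportion than that of the members. The members summed to 2875 and 2793 TPM in shNUP210, against 2656 and 2609 TPM in shCon, a ratio of means of 1.08. Both knockdown sums lay above both control sums, but 2 libraries a group cannot give an exact permutation p under 0.33, and the ratio was 0.909 under median-ratio scaling. The 3 highest members, ZNF787, ZNF444 and ZNF814, held 17.0% and 16.1% of the sum in shNUP210, against 19.5% and 20.1% in shCon. The 332 ZNF symbols below the cut summed to 685 and 645 TPM in shNUP210, against 508 and 462 TPM in shCon. Of these 332, 203 and 196 reached 1 TPM in shNUP210, against 177 and 160 in shCon, and 37 and 41 were at 0 in shNUP210, against 42 and 56 in shCon. Among members, 132 and 133 reached 5 TPM in shNUP210, against 121 and 117 in shCon. More genes over the whole table reached 1 TPM in the shNUP210 libraries, as given above, and the part of this in the ZNF sums was not tested.

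ZNF778 showed the largest fall of any member. This KRAB gene with 14 fingers lies on the plus strand at chr16:89217703-89237071. It was at 2.55 and 2.22 TPM in shNUP210, against 18.7 and 23.8 TPM in shCon. The groups stood far apart and each pair of libraries was close. The means were 2.39 ± 0.23 TPM in shNUP210 and 21.2 ± 3.60 TPM in shCon (SD, n = 2 each), a ratio of 0.112. With an shNUP210 mean under 5 TPM, the gene reached the cut only through the shCon libraries. On the log2 scale the fold change was -2.71 ± 0.35 (SE, 95% interval -3.58 to -1.84, adjusted p = 0.028 by limma). Without each library in turn it was -2.87 to -2.54, with adjusted p from 0.149 to 0.187, so the call needs all 4 libraries. It was also not past the threshold with no filter on low values (0.119), with genes of at least 1 TPM in 2 libraries (0.0547) and without the mean-variance trend (0.0957), and it passed in 10 of 18 alternatives in all. Exons of ZNF778 share 403 bases with a gene on the opposite strand, RP11-46C24.6, at 0 and 4.08 TPM in shNUP210 against 0 and 3.37 TPM in shCon. The 3 other tested genes within 100 kb, ACSF3, ANKRD11 and AC137932.1, had log2 fold changes from -0.12 to 0.82 and none was called. ANKRD11, the nearest of them, encodes an ankyrin-repeat chromatin regulator and was at 51.4 and 51.2 TPM in shNUP210 against 46.0 and 31.0 TPM in shCon.

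ZNF517, a KRAB gene with 9 fingers on the plus strand at chr8:144798876-144811169, fell to a smaller extent. It was at 29.6 and 26.8 TPM in shNUP210, against 55.6 and 59.3 TPM in shCon. The groups were well apart, with a ratio of means of 0.491. Its log2 fold change was -1.003 ± 0.17 (SE, 95% interval -1.43 to -0.58, adjusted p = 0.0469 by limma). Without each library in turn it was -1.07 to -0.93, with adjusted p from 0.173 to 0.213, and it passed in 10 of 18 alternatives. No exon overlap of 100 bases or more was found for it. RPL8, a gene of the large ribosomal subunit 6289 bases away, was at 3679 and 4026 TPM in shNUP210 against 4801 and 5016 TPM in shCon (log2 fold change -0.35, adjusted p = 0.0524). ZNF7, 16295 bases away and also a member, was at 30.1 and 12.5 TPM in shNUP210 against 7.34 and 11.2 TPM in shCon, so it stood on the other side of 0.

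Among the 6 most abundant members, ZNF787 and ZNF814 came nearest to the threshold, in opposite directions. ZNF787, at chr19:56087366-56121280 on the minus strand with 7 fingers and no KRAB pattern, was at 177 and 167 TPM in shNUP210, against 248 and 237 TPM in shCon (log2 fold change -0.49, SE 0.11, adjusted p = 0.0709 by limma). ZNF814, a KRAB gene with 23 fingers at chr19:57848731-57889074 on the minus strand, was at 141 and 134 TPM in shNUP210, against 88.2 and 83.8 TPM in shCon (log2 fold change 0.67, SE 0.13, adjusted p = 0.0549 by limma). Neither gene's groups overlapped. ZNF787 passed under 3 alternatives, the median-ratio, trimmed-mean and upper-quartile scalings, with adjusted p from 0.024 to 0.0288. ZNF814 passed under 2, the filter of 1 TPM in all 4 libraries (0.0486) and the robust prior (0.0492). ZNF814 shares 2445 exon bases with ZNF587 on the opposite strand and 23.4% of its 50-base words with other genes, so reads may be split between loci. ZNF587 was at 2.95 and 5.12 TPM in shNUP210 against 4.90 and 4.88 TPM in shCon. CTD-2583A14.8, which overlaps the ZNF814 interval, was at 65.2 and 73.0 TPM in shNUP210 against 43.9 and 42.6 TPM in shCon (adjusted p = 0.0844 by limma). CTD-2583A14.11, also there, was at 13.4 and 8.44 TPM in shNUP210 against 2.18 and 2.22 TPM in shCon (1.87, adjusted p = 0.0925). With shCon values under 5 TPM, it reached the cut only through shNUP210. CTD-2583A14.10, also there, had overlapping groups (0.22). None of the 6 other tested genes within 100 kb of ZNF814 was called.

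The other abundant members showed small differences. ZNF444, a SCAN domain protein and neighbour of ZNF787, was at 169 and 148 TPM in shNUP210 against 181 and 205 TPM in shCon (log2 fold change -0.28, adjusted p = 0.257 by limma). ZNF358 was at 66.7 and 68.2 TPM in shNUP210 against 76.5 and 82.8 TPM in shCon (-0.24, adjusted p = 0.352). In both genes the groups did not overlap. ZNF414 was at 87.9 and 70.7 TPM in shNUP210 against 63.7 and 76.8 TPM in shCon, and its log2 fold change of 0.17 became negative under the median-ratio, trimmed-mean and upper-quartile scalings. ZNF598, a ubiquitin ligase that marks collided ribosomes, was at 82.0 and 61.5 TPM in shNUP210 against 67.6 and 79.4 TPM in shCon (-0.04). The last 2 genes overlapped between groups.

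**Figure D2:**
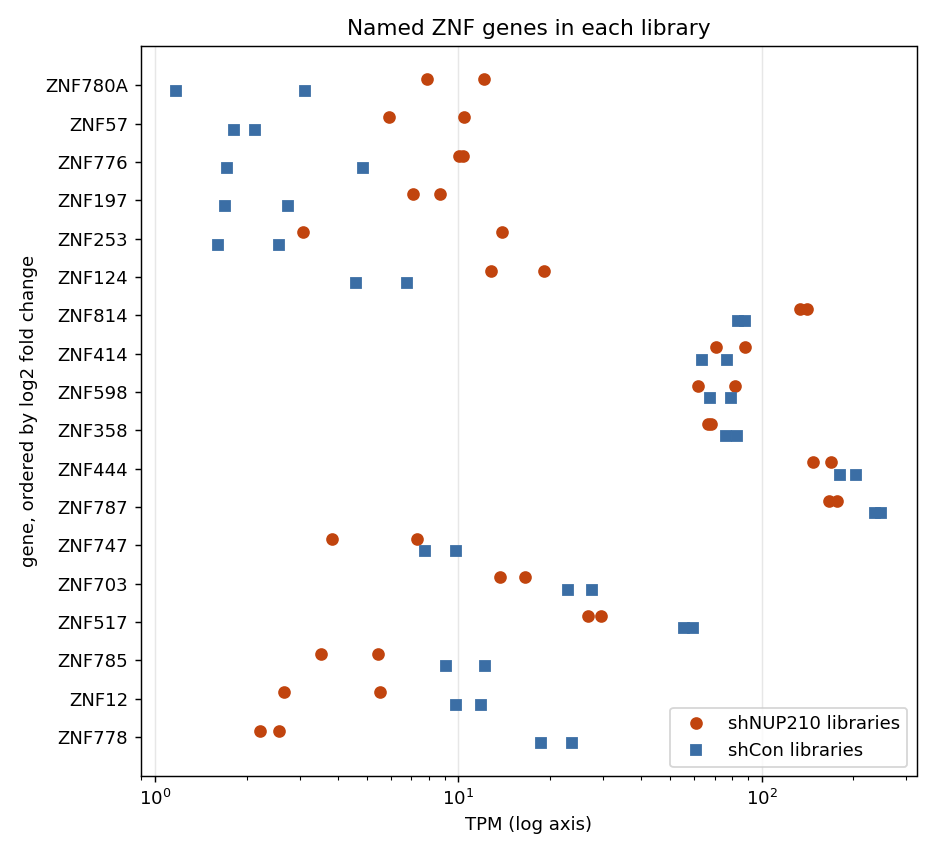
TPM (log axis) of 18 named ZNF genes in each library, with shNUP210 as red circles above shCon as blue squares, ordered by log2 fold change. The pairs of each group stand close for abundant genes such as ZNF814 and ZNF787 and wide apart for genes under 10 TPM such as ZNF253.

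Among members whose groups did not overlap, the largest positive differences were found in KRAB genes of low level, and none of them passed the test. All but ZNF124 had an shCon mean under 5 TPM, from 1.98 TPM in ZNF57 to 3.28 TPM in ZNF776, so they reached the cut only through shNUP210 and had to be higher there. ZNF780A was at 7.86 and 12.2 TPM in shNUP210 against 3.12 and 1.17 TPM in shCon (log2 fold change 1.85, SE 0.56, adjusted p = 0.13 by limma). ZNF57 was at 5.90 and 10.4 TPM in shNUP210 against 1.82 and 2.13 TPM in shCon (1.58, adjusted p = 0.162), and ZNF776 at 10.4 and 10.02 TPM in shNUP210 against 1.72 and 4.83 TPM in shCon (1.49, adjusted p = 0.163). All 3 lie on chromosome 19. ZNF197 was at 7.07 and 8.69 TPM in shNUP210 against 1.70 and 2.74 TPM in shCon (1.48, adjusted p = 0.163). ZNF253 was at 3.06 and 14.0 TPM in shNUP210 against 2.55 and 1.61 TPM in shCon (1.36, adjusted p = 0.33), where 1 knockdown library carried the difference. ZNF124 was at 19.1 and 12.8 TPM in shNUP210 against 4.59 and 6.79 TPM in shCon (1.34, adjusted p = 0.106). For members with a mean under 10 TPM, as most of these had, the median 95% interval reached 1.11 log2 units to either side.

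Besides the called genes, the largest negative differences among members without overlap lay off chromosome 19. ZNF12 and ZNF785 had shNUP210 means under 5 TPM, 4.08 and 4.48 TPM, and reached the cut only through shCon. ZNF12 was at 5.5 and 2.66 TPM in shNUP210 against 11.9 and 9.85 TPM in shCon (log2 fold change -1.28, SE 0.45, adjusted p = 0.165 by limma). ZNF785 was at 5.42 and 3.53 TPM in shNUP210 against 9.07 and 12.2 TPM in shCon (-1.10, adjusted p = 0.18), and 1339 of its exon bases lie opposite AC002310.7, at 5.29 and 5.17 TPM in shNUP210 against 4.11 and 3.03 TPM in shCon. ZNF747 was at 7.29 and 3.83 TPM in shNUP210 against 7.74 and 9.80 TPM in shCon (-0.62, adjusted p = 0.424). These 3 carry a KRAB pattern. ZNF703, a corepressor of the NET family that is amplified in breast cancers and in which the finger pattern found no C2H2 finger, was at 16.6 and 13.7 TPM in shNUP210 against 23.0 and 27.7 TPM in shCon (-0.70, adjusted p = 0.154).

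KRAB genes on chromosome 19 mostly had positive fold changes on the deposited values, and the cut fixed the direction of many of them. Of 27 such members, 26 had a log2 fold change above 0, with a median of 0.47 and no call, and the groups did not overlap in 12 (44.4%), all higher in shNUP210, beside 42.7% of all genes tested. In 1 of the 27, ZNF561, the only one below 0, the shNUP210 mean was under 5 TPM. In 12 the shCon mean was under 5 TPM, so these 12 had to be higher in shNUP210. The 14 with both means at 5 TPM or more were all above 0 with a median of 0.31, beside 6052 of 8862 genes and a median of 0.21 for all genes tested with both means at that level. The counts over all 27 therefore support no direction of the subgroup, and asking for both means took ZNF561 out of the 14. Their summed level was 373 and 395 TPM in shNUP210 against 244 and 247 TPM in shCon, and without ZNF814 it was 232 and 261 TPM in shNUP210 against 155 and 163 TPM in shCon. Both knockdown sums stood above both control sums either way. These sums include the 12 genes that had to be higher in shNUP210, so they support no direction either. The 27 KRAB members on other chromosomes had 20 values above 0, a median of 0.08, and both called genes. Their sums were 382 and 369 TPM in shNUP210 against 367 and 345 TPM in shCon. Members without a KRAB pattern had a median of 0.03 on chromosome 19 (22 genes, 12 above 0) and 0.19 elsewhere (69 genes, 46 above 0). Under the 3 scalings and quantile normalization the chromosome 19 KRAB genes had a median of 0.15 to 0.24. Of these 27 genes, 18 to 22 were above 0. The same 12 genes that had to be higher in shNUP210 are among them, so these values support no direction either. The 14 were not taken through the scalings on their own. The median of the KRAB genes elsewhere turned negative, -0.17 to -0.13. Under the same settings the chromosome 19 members without a KRAB pattern had medians of -0.24 to -0.19, with 5 of 22 above 0. The subgroups were compared after values had been seen and the difference between them was not tested.

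**Figure D3:**
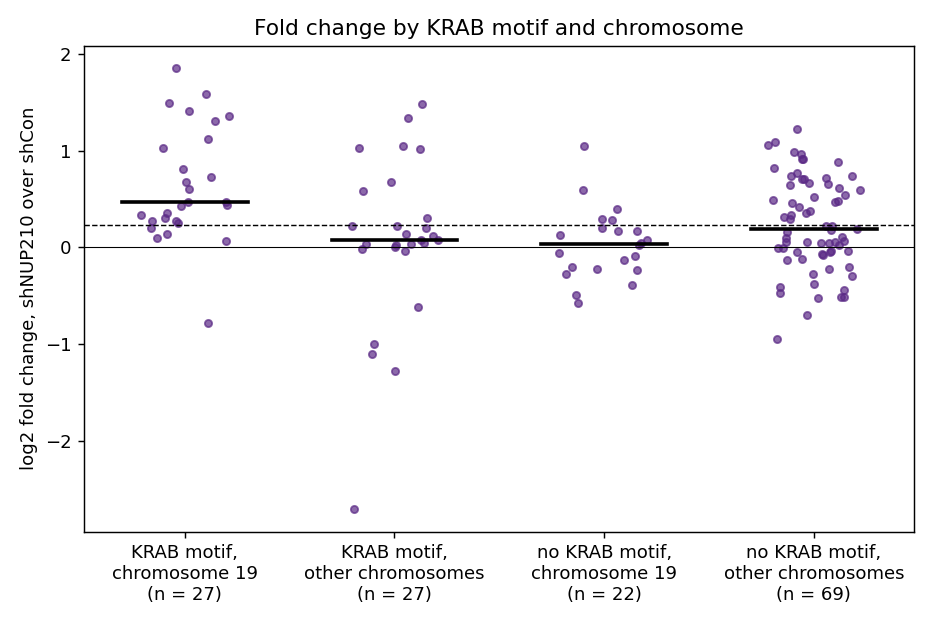
Log2 fold change of shNUP210 over shCon for 145 protein-coding members by KRAB pattern and chromosome, with each point a gene and each thick line the median of its subgroup. The dashed line is the median of all genes tested, 0.24, and 26 of 27 KRAB genes on chromosome 19 lie above 0, 12 of them with an shCon mean under 5 TPM.

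Within this subgroup the values differed widely in reliability. ZNF235 was at 25.2 and 27.1 TPM in shNUP210 against 19.8 and 17.4 TPM in shCon (log2 fold change 0.47), with both libraries of a group close together. ZNF506 was at 16.3 and 9.86 TPM in shNUP210 against 3.04 and 6.62 TPM in shCon (1.31), and ZNF224 at 9.79 and 7.31 TPM in shNUP210 against 5.68 and 3.92 TPM in shCon (0.72). In these 3 the groups did not overlap, and none passed the test. ZNF506 and ZNF224 had shCon means of 4.83 and 4.8 TPM, so they reached the cut only through shNUP210 and had to be higher there. ZNF682 was at 13.9 and 2.61 TPM in shNUP210 against 1.08 and 2.66 TPM in shCon, so the groups overlapped. Its shCon mean was 1.87 TPM, so it also reached the cut only through shNUP210. ZNF561, the 1 member of the subgroup below 0, was at 4.23 and 4.44 TPM in shNUP210 against 3.61 and 17.3 TPM in shCon. A single control library was high, and with an shNUP210 mean of 4.335 TPM the gene reached the cut only through shCon.

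GC content moved with the fold change, in ZNF genes and in other genes alike. The members were split into 3 classes of 49 by the mean GC content of their transcripts, at 50.2% and 59.8%. The class with the lowest GC content had a median log2 fold change of 0.44, the middle class 0.30 and the highest class 0.05. The other genes of the same mean TPM and GC ranges had medians of 0.38, 0.20 and 0.04. Over 147 members the Spearman correlation of fold change with GC content was -0.32, and over 8832 other genes it was -0.26, as a description across genes that share the same 4 libraries. The chromosome 19 KRAB genes had a median GC content of 47.4% and a median mean level of 6.68 TPM, against 55.9% and 10.8 TPM for the KRAB genes elsewhere and 63.9% and 12.5 TPM for the chromosome 19 members without a KRAB pattern. Other genes of the range on chromosome 19 had a median GC content of 60.3% and a median log2 fold change of 0.09. The part of GC content in the subgroup pattern was not tested.

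**Figure D4:**
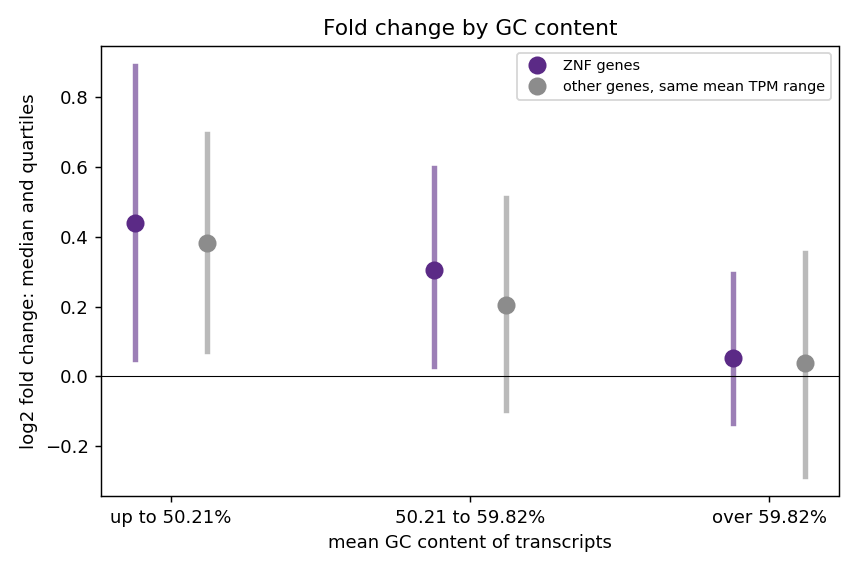
Median log2 fold change of shNUP210 over shCon (points) and its quartiles across genes (bars), by mean transcript GC content, for ZNF genes (purple) and other genes of the same mean TPM range (grey). In both sets the median is lowest in the highest GC class, 0.05 for ZNF genes and 0.04 for other genes.

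The fold changes also varied with level, and little with the number of fingers. Members of 5 to 10 TPM had a median log2 fold change of 0.23, beside 0.33 for other genes of that level. Members of 10 to 20 TPM had 0.22, beside 0.32, and members of 20 TPM or more had 0.02, beside 0.21. In each class the members' median was the lower one, and no test was made of that difference. Members with 0 to 1, 2 to 7, 8 to 11 and 12 or more fingers had medians of 0.05, 0.20, 0.22 and 0.24, over 14, 48, 45 and 38 genes. Only the smallest class stood apart. Over 145 members the Spearman correlation of fold change with the number of fingers was 0.16.

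Of the ZNF proteins with roles at RNA and ribosomes, 10 were measured and none was called, with a median log2 fold change of 0.56 and 6 genes higher in shNUP210 without overlap (60.0%, beside 42.7% of all genes tested) and 0 lower (beside 14.4%). ZNF622, which takes part in maturation of the large ribosomal subunit, was at 26.7 and 22.1 TPM in shNUP210 against 15.0 and 13.9 TPM in shCon (0.71, adjusted p = 0.143 by limma). ZNF326, a subunit of the DBIRD complex that couples transcript elongation to splicing, was at 16.9 and 13.5 TPM in shNUP210 against 7.65 and 8.67 TPM in shCon (0.82, adjusted p = 0.167). ZNF207 (BuGZ), a spindle and kinetochore protein, was at 45.1 and 45.2 TPM in shNUP210 against 29.3 and 27.8 TPM in shCon (0.64, adjusted p = 0.103). In all 3 the groups stood apart, but ZNF207 shares 466 exon bases on its own strand with RP11-227G15.3, at 13.6 and 27.5 TPM in shNUP210 against 0.30 and 0 TPM in shCon. ZNF638, a nuclear protein that works with the HUSH silencing complex on retroviral DNA, was at 15.1 and 33.2 TPM in shNUP210 against 8.99 and 14.5 TPM in shCon (0.91). ZNF346, which binds double-stranded RNA, was at 10.96 and 14.5 TPM in shNUP210 against 7.76 and 6.91 TPM in shCon (0.71). ZNF593, an export factor of the large subunit, was at 35.8 and 31.6 TPM in shNUP210 against 30.3 and 36.3 TPM in shCon (0.02), and its groups overlapped. The groups also overlapped for ZNF598, given above (-0.04), and for ZNF330 and ZNF106. ZNF330 was at 19.8 and 13.3 TPM in shNUP210 against 12.9 and 18.9 TPM in shCon (0.06). ZNF106 was at 13.3 and 14.3 TPM in shNUP210 against 14.8 and 8.30 TPM in shCon (0.29). ZNF830 was higher without overlap, at 6.35 and 8.85 TPM in shNUP210 against 5.58 and 4.66 TPM in shCon (0.48). The list's median stayed above 0 under the 3 scalings and quantile normalization, at 0.29 to 0.34. Its median GC content was 45.8%, in the lowest GC class. On the deposited values the other genes of the range in that class had a median of 0.38, with 50.3% higher without overlap and 6.69% lower. The part of GC content here was not tested.

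Members that belong to corepressor or chromatin complexes numbered 7, with no call, a median of 0.54 and 5 genes higher without overlap (71.4%, beside 42.7% of all genes tested). ZNF516, which works with CtBP and LSD1, was at 11.4 and 11.8 TPM in shNUP210 against 4.89 and 6.07 TPM in shCon (0.97, adjusted p = 0.163 by limma). ZNF217, a CoREST-linked factor amplified in breast cancer, was at 9.44 and 11.9 TPM in shNUP210 against 7.07 and 6.90 TPM in shCon (0.54). ZNF592 and ZNF687 act together with ZMYND8 in the Z3 complex. ZNF592 was at 20.9 and 19.9 TPM in shNUP210 against 15.8 and 13.1 TPM in shCon (0.47), and ZNF687 at 18.4 and 13.6 TPM in shNUP210 against 10.8 and 9.49 TPM in shCon (0.60). ZNF451, a SUMO ligase, was at 7.31 and 13.6 TPM in shNUP210 against 5.41 and 2.48 TPM in shCon (1.22). These 5 genes were higher in both knockdown libraries than in both control libraries. Of them, ZNF451 had an shCon mean of 3.945 TPM, so it reached the cut only through shNUP210 and had to be higher there. ZNF644, a partner of the methyltransferases G9a and GLP, was at 2.37 and 9.31 TPM in shNUP210 against 9.46 and 5.74 TPM in shCon (-0.51), and the groups overlapped.

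Transcription activators among the members did not share a direction. Of 8 measured, 4 had a log2 fold change above 0, none was called and the median was 0.11, which turned negative, -0.17 to -0.12, under the 3 scalings and quantile normalization. ZNF143, which binds promoters and chromatin loop anchors, was at 12.5 and 9.75 TPM in shNUP210 against 10.1 and 47.2 TPM in shCon, so its value of -0.94 rests on 1 control library. Its paralog ZNF76 was at 27.2 and 25.1 TPM in shNUP210 against 21.3 and 20.4 TPM in shCon (0.31). ZNF281 was at 14.4 and 15.2 TPM in shNUP210 against 9.61 and 7.47 TPM in shCon (0.74, adjusted p = 0.195 by limma). ZNF410, known in red cell precursors as an activator of the NuRD subunit gene CHD4, was at 9.02 and 7.93 TPM in shNUP210 against 13.8 and 9.65 TPM in shCon (-0.41). CHD4 itself was at 72.7 and 70.9 TPM in shNUP210 against 45.5 and 38.2 TPM in shCon (0.77, adjusted p = 0.0699).

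The members best known for silencing repeats were low and variable. ZNF91, which represses SVA retroelements, was at 2.28 and 13.3 TPM in shNUP210 against 4.87 and 1.60 TPM in shCon. ZNF93, which represses LINE-1 elements, was at 6.41 and 11.9 TPM in shNUP210 against 3.69 and 13.1 TPM in shCon. ZNF274, which recruits SETDB1 to the ends of zinc finger genes, was at 7.34 and 10.9 TPM in shNUP210 against 9.34 and 5.01 TPM in shCon. In all 3 the groups overlapped and no direction can be given. The 11 SCAN members had a median of 0.19 with no call, and 3 members with developmental roles had a median of 0.05. ZNF609 was at 10.7 and 9.95 TPM in shNUP210 against 6.51 and 5.77 TPM in shCon, and ZNF503 at 11.3 and 6.45 TPM in shNUP210 against 8.30 and 8.17 TPM in shCon. Both lists' medians turned negative under the 3 scalings and quantile normalization.

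The corepressors that KRAB proteins bind were expressed in all libraries. TRIM28 was at 702 and 681 TPM in shNUP210 against 637 and 604 TPM in shCon (log2 fold change 0.16, adjusted p = 0.29 by limma). SETDB1 was at 29.5 and 27.5 TPM in shNUP210 against 16.9 and 18.2 TPM in shCon (0.67, adjusted p = 0.13). In both genes the groups did not overlap. Of 15 tested genes of the KRAB corepressor list, none was called, 7 were higher and 0 lower at an unadjusted p under 0.05, where 18.1% and 5.86% of all genes tested were, and the median was 0.49. Without overlap, 10 were higher (66.7%, beside 42.7% of all genes tested) and 0 lower. At an unadjusted p under 0.05, 2 were higher and 1 lower under each of the 3 scalings, and 2 and 0 under quantile normalization. Of all 9825 genes tested, 664 to 820 were higher and 1225 to 1444 lower under the 3 scalings, and 911 and 987 under quantile normalization. Under the 3 scalings and quantile normalization this median was 0.20 to 0.25, still above that of all genes tested. The list had a median GC content of 49.1%, in the lowest GC class. On the deposited values the other genes of the range in that class had a median of 0.38, with 50.3% higher without overlap and 6.69% lower. The part of GC content in the list's values was not tested. Of 12 heterochromatin genes, 1 was called, HP1BP3, a nuclear protein related to linker histones, at 147 and 160 TPM in shNUP210 against 79.7 and 73.8 TPM in shCon (0.99, adjusted p = 0.0293 by limma), where 3.24% of all genes tested were called. HP1BP3 passed in 9 of 18 alternatives, with an adjusted p of 0.0543 under upper-quartile scaling, 0.146 without the mean-variance trend and 0.145 to 0.168 with any 1 library left out. None was called of 4 HUSH genes (median 0.49) and 5 genes of the CtBP, CoREST and Z3 complexes (median 0.40). Under the 3 scalings and quantile normalization these medians were 0.20 to 0.25 and 0.10 to 0.18. The median GC content of these lists, 46.2% and 49.2%, also lay in the lowest GC class. Other zinc finger families at 5 TPM or more had no call either. Medians were 0.16 for 14 ZBTB genes, 0.20 for 9 ZSCAN and ZKSCAN genes and 0.26 for 11 KLF and SP genes. The median was 1.00 for 3 genes with a ZFP symbol, 2 of them higher without overlap (66.7%, beside 42.7% of all genes tested) and 0 lower. Of these, ZFP91 had an shCon mean of 3.815 TPM, so it reached the cut only through shNUP210 and had to be higher there.

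Libraries of a group differed most in members of low level. A difference of 1 or more on the log2 scale between both libraries of a group was found in 15 members in shNUP210 and in 15 members in shCon, 27 members in all, and 21 of these had a mean under 10 TPM. The median difference between libraries of a group was 0.36 for members and 0.31 for other genes in the range. At 20 TPM or more the median 95% interval reached 0.49 log2 units to either side, and 118 of 147 intervals included 0. ZNF767, a pseudogene, was at 9.10 and 4.81 TPM in shNUP210 against 9.78 and 1.57 TPM in shCon, and ZNF827 at 13.1 and 2.64 TPM in shNUP210 against 6.59 and 5.32 TPM in shCon.

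**Figure D5:**
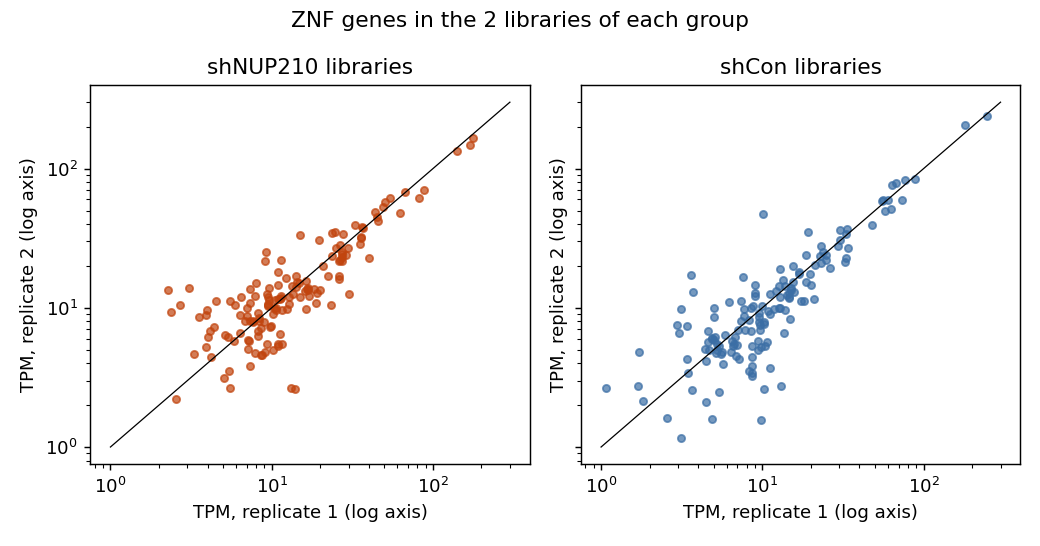
TPM of 147 ZNF genes in replicate 2 (vertical) against replicate 1 (horizontal) of shNUP210 (left) and shCon (right), both on log axes, with the line of equal values. Points stray most below 10 TPM, and ZNF143 stands off the line in shCon at 10.1 and 47.2 TPM.

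Shared sequence limits some single values. Exon overlaps of 100 bases or more with another listed gene were found for 67 members, 51 of them with the partner on the opposite strand, and 36 members shared 10% or more of their 50-base words with another gene. For the strand setting of the counting, nothing is stated in the labels. ZNF276 lies opposite FANCA over 2302 exon bases. It was at 27.7 and 34.0 TPM in shNUP210 against 18.1 and 11.2 TPM in shCon, and FANCA, a DNA repair gene of the Fanconi pathway, at 78.0 and 70.2 TPM in shNUP210 against 38.3 and 35.9 TPM in shCon. ZNF3 lies opposite ZSCAN21, and was at 48.8 and 52.7 TPM in shNUP210 against 33.0 and 34.1 TPM in shCon, with ZSCAN21 at 14.4 and 13.8 TPM in shNUP210 against 10.2 and 5.06 TPM in shCon. The coding ZNF668 row was at 13.6 and 12.5 TPM in shNUP210 against 10.01 and 10.3 TPM in shCon, and the non-coding row opposite it at 62.1 and 48.1 TPM in shNUP210 against 63.2 and 50.9 TPM in shCon. The 80 members without such an overlap had a median log2 fold change of 0.20, the same as the 67 with one, but the sums differed. Those 67 summed to 1362 and 1318 TPM in shNUP210 against 1163 and 1090 TPM in shCon. The 80 summed to 1513 and 1475 TPM in shNUP210 against 1493 and 1520 TPM in shCon. The part of overlap in the member sums was not tested.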

How the data were processed

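The deposited values, in a separate table for each library, were read as TPM because the columns summed to 999992.7 to 999997.8. The submitters' processing notes list Trimmomatic, STAR, RSEM, DESeq and hg38 without roles or versions, with a gene annotation release not given in the sources used here. Total RNA was the starting material, per the labels. Genes with a mean of 5 TPM or more (9825) were tested on log2(TPM + 1) with limma 3.58.1 in R 4.3.3, with a mean-variance trend, two-sided, and Benjamini-Hochberg adjustment over all of them, called at 0.05. The fit has 2 residual degrees of freedom. Positions, exon overlaps, GC content and protein patterns came from GENCODE release 29, and promoters from RefSeq. A C2H2 finger was 2 cysteines 2 to 4 residues apart, 12 residues, and 2 histidines 3 to 5 apart. The fit was tested on simulated data. The members, lists and subgroups were chosen with earlier results of these data known. Named were called members, the 6 with the highest mean, the 6 highest and 6 lowest fold changes among members without overlap, the genes at the cut, and members of role lists. ZNF235, ZNF506, ZNF224, ZNF682, ZNF561, ZNF767, ZNF276, ZNF3, ZNF668, ZNF7, CHD4, FANCA, RPL8, ANKRD11 and the overlap partners were named after their values were seen. The same holds for ZFP91 and the CTD-2583A14 genes. Alternatives covered pseudocounts, filters, scalings, variance models, left-out libraries and replicate pairing.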

Additional observations from a re-analysis of the deposited data

How the results depend on the processing

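The calls rest on the filter and on all 4 libraries. Genes called among all tested numbered 57 with at least 1 TPM in 2 libraries, 14 with no filter, 200 under quantile normalization (82 higher and 118 lower) and 2 to 41 with 1 library left out, where the lone library is assumed to vary like the other group. Without the mean-variance trend limma called 0, with 2142 at an unadjusted p under 0.05. The split was 202 higher and 116 lower as deposited, 74 and 243 under median-ratio, 72 and 244 under trimmed-mean and 62 and 277 under upper-quartile scaling. Of members, 0 were called lower with at least 1 TPM in 2 libraries, with no filter, without the trend and without any 1 library, and 1 among members without exon overlap. One member, ZNF814, was called higher (1 in place of 0) with at least 1 TPM in all 4 libraries and with the robust prior. The replicate numbers could not be shown to pair the libraries, as the deviations of replicate 1 in both groups correlated at 0.026 across genes. With the replicate block, 116 genes and 0 members were called. Other medians were scale dependent, and the cause of each shift was not tested beyond the scaling itself. The members' median was -0.0088, -0.0139, -0.0599 and -0.0832 under median-ratio, trimmed-mean, upper-quartile and quantile settings, and 0.17 to 0.30 with 1 library left out. That of other genes in the range was 0.0306, 0.0257, -0.0206 and 0.0178, 0.213 with pseudocount 5, and 0.23 to 0.28 with 1 library left out. The ratio of summed member TPM was 0.909 under median-ratio scaling, 1.04 for members of 10 TPM or more, and 1.06 to 1.09 with 1 library left out, a check added after seeing the data, as were the subgroup medians by scaling, the sum without ZNF814, the counts by group mean at the cut and the HP1BP3 alternatives. Signs turned for ZNF414 (-0.0695, -0.0748 and -0.12 under median-ratio, trimmed-mean and upper-quartile scaling) and for ZNF598 (-0.25 to 0.16 with 1 library left out, 0.07 without shCon replicate 2). Over NUP210 and the 18 members named for a call, level or fold change, 307 values kept direction and side of the threshold, 24 lost the call, 5 gained one and 5 turned. TPM keeps no depth, so counting error could not be given.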
